A study of Mus musculus with 8 samples.

Results

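The transcripts of 7 matrix metalloproteinases and 3 of their tissue inhibitors were followed in Gr-1+ cells of mouse bone marrow and skin wounds. The enzymes were Mmp8, Mmp9 and Mmp25, which neutrophils store in granules or secretory vesicles, and Mmp12, Mmp13, Mmp14 and Mmp19, here called the induced enzymes. The inhibitors were Timp1, Timp2 and Timp3. They were taken by gene symbol from the combined expression table, in which all 10 were found, at 17 loci of at least 200 bp. Where a symbol had several loci, the 1 with the highest mean level was used. All 10 passed the filter on low values, among 13041 gene names tested of 15192 with a locus of that length.

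Matrix metalloproteinases are zinc-dependent enzymes that cut collagens, elastin and other matrix proteins, and are made as inactive precursors. The tissue inhibitors of metalloproteinases (TIMPs) bind the active site and block it. Neutrophils transcribe their granule enzymes while they mature in the marrow and carry the finished protein to the tissue, whereas macrophages, fibroblasts and keratinocytes of a wound transcribe their own.

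The table describes 8 libraries, 2 for each of 4 groups. Nondiabetic mice were heterozygous for the leptin receptor gene (Lepr +/-) and diabetic mice were homozygous (Lepr -/-), so the controls carry 1 disrupted copy as well. All were C57BL/6 mice of both sexes, matched for sex, aged 8 to 16 weeks and housed singly. Each genotype had 10 mice, all wounded, and each mouse received 2 full-thickness 8 mm wounds on the back. Marrow and wounds, the latter with a 2 mm border of skin, were taken on day 3. Cells from 5 mice were pooled for each library, wounds were dissociated with enzymes, and Gr-1+ cells were taken with magnetic beads. The Gr-1 antibody binds Ly6G and Ly6C, so both neutrophils and inflammatory monocytes can be captured. Levels are FPKM, sequenced fragments per length of transcript, scaled to the total mapped in the library. Each level is given for both pools or as mean ± SD of 2 pools (n = 2), so p-values measure the spread between pools and not between mice.

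Libraries of the same group had Spearman correlations across genes of 0.982 to 0.988, against 0.632 to 0.663 between tissues. Depth relative to the shallowest library, read from the size of 1 fragment at short loci, ran from 1 to 1.86. Lepr, the gene disrupted in the diabetic mice, was listed at 0.477 and 0.689 FPKM against 0.0390 and 0.186 for the marrow pools (nondiabetic against diabetic), and at 4.95 and 4.66 against 1.37 and 1.22 for the wound pools, so it was lower in diabetic mice in both tissues. Ly6g, the neutrophil antigen of the sort, stood at 854 ± 64.9 FPKM in the marrow of nondiabetic and 568 ± 2.27 in that of diabetic mice, and at 18.2 ± 1.41 and 12.6 ± 0.464 in their wounds. Summed over 7 measured markers, neutrophil transcripts were at 15957 to 21619 FPKM in marrow libraries and 409 to 628 in wound libraries. Most of the wound sum came from Retnlg (192 to 344 FPKM) and Elane (173 to 221). Elane was the only 1 of the 7 not called lower in wound in diabetic mice. The sum of 10 monocyte and macrophage markers was 92.4 to 124 in marrow and 511 to 661 in wound. Markers of cell types other than leukocytes were present in wound libraries too: 11 fibroblast markers summed to 308 to 451 FPKM, 10 keratinocyte markers to 290 to 689 and 10 endothelial markers to 61.4 to 117. In marrow these sums were 4.12 to 10.8, 22.2 to 30.6 and 12.1 to 17.8. No marker of these lists was at 0 in a wound library, and 1 or 2 keratinocyte markers were at 0 in each marrow library. In pooled cells of this kind, fewer cells of a type and less RNA per cell cannot be told apart. The part of these other cells in the differences below was not tested.

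The loci of the 10 genes differ in how much of the gene they hold, set against the GENCODE annotation of the same build (mm9). The loci used for Mmp8, Mmp25, Mmp14, Mmp19 and Timp1 held 100% of the annotated exonic bases, those of Mmp13 99.5%, Timp3 97.9%, Timp2 94.5% and Mmp12 70.0%. The Mmp9 locus, chr2:164766140-164766814 on the plus strand, held only the first of 15 exon blocks, 188 of 3539 exonic bases (5.31%). No listed locus lay over the other 14 exon blocks, from position 164773719 on. Mmp9 values thus rest on a 674 bp interval at the 5′ end of the gene, of which 188 bases are annotated as exonic. Whether they follow the whole Mmp9 transcript was not tested. Timp1 (chrX:20425667-20486711) was listed with the same interval as rows for Araf and Syn1, and Mmp19 (chr10:128227982-128242428) with 1110012D08Rik. Strandedness of the libraries is not given in the sources used here, so reads of overlapping genes may have been shared between them.

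Mmp13, Mmp12 and Mmp8 lie in 1 cluster of metalloproteinase genes on chromosome 9, at 7272527 to 7283412, 7347378 to 7358687 and 7557584 to 7569414 (mm9, plus strand). They had opposite behaviour in these libraries: Mmp8 was high in marrow, and Mmp12 and Mmp13 were high in wounds. Their promoters are shown for that reason, as the 250 bases before the RefSeq start (from RefSeq, build GRCm38.p6, placed on mm9 by an exact match). Capitals mark the motif matches of a search for TGANTCA (AP-1), TTGCNNAA (C/EBP) and AACCACA (Runx) on both strands and TATAAA on the coding strand. No matches overlap in these promoters.
Mmp13, chr9:7272264-7272513: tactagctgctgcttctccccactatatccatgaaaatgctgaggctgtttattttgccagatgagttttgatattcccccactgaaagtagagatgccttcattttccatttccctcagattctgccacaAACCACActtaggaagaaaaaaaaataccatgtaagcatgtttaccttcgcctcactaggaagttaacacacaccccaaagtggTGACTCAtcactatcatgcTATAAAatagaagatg
Mmp12, chr9:7347124-7347373: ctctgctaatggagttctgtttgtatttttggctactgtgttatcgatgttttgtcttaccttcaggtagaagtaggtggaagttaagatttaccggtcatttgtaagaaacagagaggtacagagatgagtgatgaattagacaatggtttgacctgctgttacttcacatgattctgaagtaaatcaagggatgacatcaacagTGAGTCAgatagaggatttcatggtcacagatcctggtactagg
Mmp8, chr9:7558179-7558428: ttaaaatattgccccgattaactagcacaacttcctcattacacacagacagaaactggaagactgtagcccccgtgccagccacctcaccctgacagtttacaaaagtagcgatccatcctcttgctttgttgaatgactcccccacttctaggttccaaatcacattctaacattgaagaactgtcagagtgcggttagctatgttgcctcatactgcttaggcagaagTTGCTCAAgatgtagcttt
The Mmp13 window held an AP-1 match starting 35 bases before the start, a TATA box at 16 and a Runx match at 119. The Mmp12 window, which belongs to the start 4 bp from the edge of the measured locus, held an AP-1 match at 44. A second Mmp12 start, 2981 bp from that edge and not shown, had a C/EBP match at 39 and none for AP-1. The Mmp8 window held a C/EBP match at 19 and none for AP-1. AP-1 is the dimer of Fos and Jun proteins, known for its role at the collagenase promoters, and C/EBP factors act in myeloid maturation. Among 32851 RefSeq promoters of this length, 6.75% held the AP-1 letters, 9.56% the C/EBP letters, 7.59% the TATA box and 4.40% the Runx letters. Of 9 promoters found for 8 of the 10 genes, the AP-1 letters occurred in 2, both shown. A match is a run of letters and was not tested as a binding site.

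Setting wound cells against marrow cells asks what changes between the source of Gr-1+ cells and the site of injury. In both genotypes the 3 granule enzymes fell steeply, the 4 induced enzymes rose, Timp1 and Timp3 rose and Timp2 fell. Thus all 10 genes passed the test in both genotypes, 6 higher and 4 lower, and their libraries did not overlap. Mmp12, Mmp13, Mmp14, Timp1 and Timp3 were under 1 FPKM in every marrow library. They therefore passed the filter on low values only through their wound libraries, and their rise is not independent of that filter. These tissues differ so widely that the share of all genes called was 86.6% in nondiabetic mice (32.8% higher and 53.8% lower) and 85.5% in diabetic mice (37.7% higher and 47.8% lower), and 92.6% and 93.1% of genes had no overlap. A count of 10 of 10 is therefore near the background, and sizes are given beside it. The median difference was 2.53 and 2.93 over the 10 genes and -0.38 and -0.18 over all genes. As the 10 genes hold 6 rises and 4 falls, their median depends on how many of each were listed and describes no typical shift. Differences are on the log2(FPKM + 1) scale, which understates the change of genes with low values, and were tested with limma. Adjusted p is by Benjamini-Hochberg over all 13041 genes, with a threshold of 0.05.

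Mmp8, neutrophil collagenase, stood at 1347 and 1483 FPKM in the nondiabetic marrow pools and at 1434 and 1467 in the diabetic ones. In wound cells it stood at 30.0 and 30.6 FPKM in the nondiabetic and 25.4 and 25.8 in the diabetic pools. It was thus among abundant transcripts in marrow and fell to a moderate level in wounds, with pools close together. The difference was -5.50 in nondiabetic mice (SE 0.0523, adjusted p = 9.58e-09 by limma) and -5.77 in diabetic mice, and mean FPKM were 46.7-fold and 56.6-fold lower in wound. Mmp9, gelatinase B, which digests denatured and basement membrane collagen, was measured at 1518 and 1473 FPKM in nondiabetic marrow, 1436 and 1510 in diabetic marrow, 63.0 and 65.0 in nondiabetic wound and 59.3 and 59.6 in diabetic wound. The marrow ranges of Mmp9 and Mmp8 overlapped, and Mmp9 was the higher in each wound library. Its differences were -4.52 and -4.61. Mmp25, a membrane-anchored enzyme of leukocytes also called leukolysin, was at 93.8 FPKM in both nondiabetic marrow pools and at 95.9 and 98.8 in the diabetic ones. In wound it stood at 4.11 and 4.36 FPKM in the nondiabetic and at 2.55 and 2.50 in the diabetic pools. Its marrow level was below that of the other granule enzymes in every library, and its differences were -4.18 and -4.80. The neutrophil marker sum fell between the same groups.

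The induced enzymes were scarce in marrow and rose in wound. Mmp12, macrophage elastase, was at 0.145 and 0.0918 FPKM in nondiabetic marrow and 0.162 and 0.00948 in diabetic marrow. By the fragment estimate described under processing, it had about 2.91 to 29.4 fragments in these libraries. In wound it reached 59.7 and 61.3 FPKM in the nondiabetic and 77.7 and 78.2 in the diabetic pools. It was the most abundant induced enzyme in both wound groups, and rose by 5.78 (SE 0.0715, adjusted p = 1.57e-08 by limma) and 6.19. Mmp13, collagenase 3, a collagenase of rodent wounds, was at 0.485 and 0.484 FPKM in nondiabetic marrow and 0.1996 and 0.0838 in diabetic marrow, and at 27.4 and 28.7 in nondiabetic wound and 64.9 and 63.5 in diabetic wound. The 4 groups did not overlap, and the diabetic wound pools were the highest. Mmp13 rose by 4.29 in nondiabetic and 5.84 in diabetic mice. Mmp14, a membrane-bound collagenase that also activates the Mmp2 precursor at the cell surface, was at 0.167 to 0.451 FPKM in the 4 marrow libraries, 33.4 and 35.6 in nondiabetic wound and 43.8 and 43.2 in diabetic wound. It rose by 4.65 and 5.19. Mmp19, a secreted enzyme of monocytes and macrophages among other cells, was at 1.15 and 1.197 FPKM in nondiabetic marrow, 0.728 and 0.734 in diabetic marrow, 20.04 and 19.6 in nondiabetic wound and 13.0 and 13.1 in diabetic wound. It had the highest marrow level of the 4 induced enzymes in every library, and it was the only 1 of them whose diabetic wound pools lay below the nondiabetic ones. Its rises were 3.26 and 3.02. The marker sums of macrophages, fibroblasts, keratinocytes and endothelial cells were higher in the same wound libraries.

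Each inhibitor had its own pattern. Timp1, a soluble inhibitor induced by inflammation and growth factors, was at 0.0425 and 0.142 FPKM in nondiabetic marrow and 0.114 and 0.0572 in diabetic marrow, values that correspond to about 1.23 to 4.86 fragments. In wound it was at 29.5 and 28.6 FPKM in the nondiabetic and 39.8 and 38.8 in the diabetic pools, rising by 4.78 and 5.22. Timp2, a widely and steadily expressed inhibitor that also takes part in Mmp2 activation with Mmp14, was at 67.6 and 66.7 FPKM in nondiabetic marrow, 63.5 and 64.8 in diabetic marrow, 23.3 and 23.5 in nondiabetic wound and 24.7 and 23.2 in diabetic wound. It was the only inhibitor of the 3 that was higher in marrow, and its differences of -1.48 and -1.38 were the smallest between tissues among the 10 genes. Timp3, a matrix-bound inhibitor that also blocks Adam17, was at 0.782 and 0.904 FPKM in nondiabetic marrow, 0.0592 and 0.0599 in diabetic marrow, 5.35 and 5.54 in nondiabetic wound and 6.59 and 6.64 in diabetic wound. It had the lowest wound level of the inhibitors and rose by 1.81 and 2.85. All 20 of these differences between tissues kept their direction and passed the test under the 23 alternative settings tried.

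**Figure D1:**
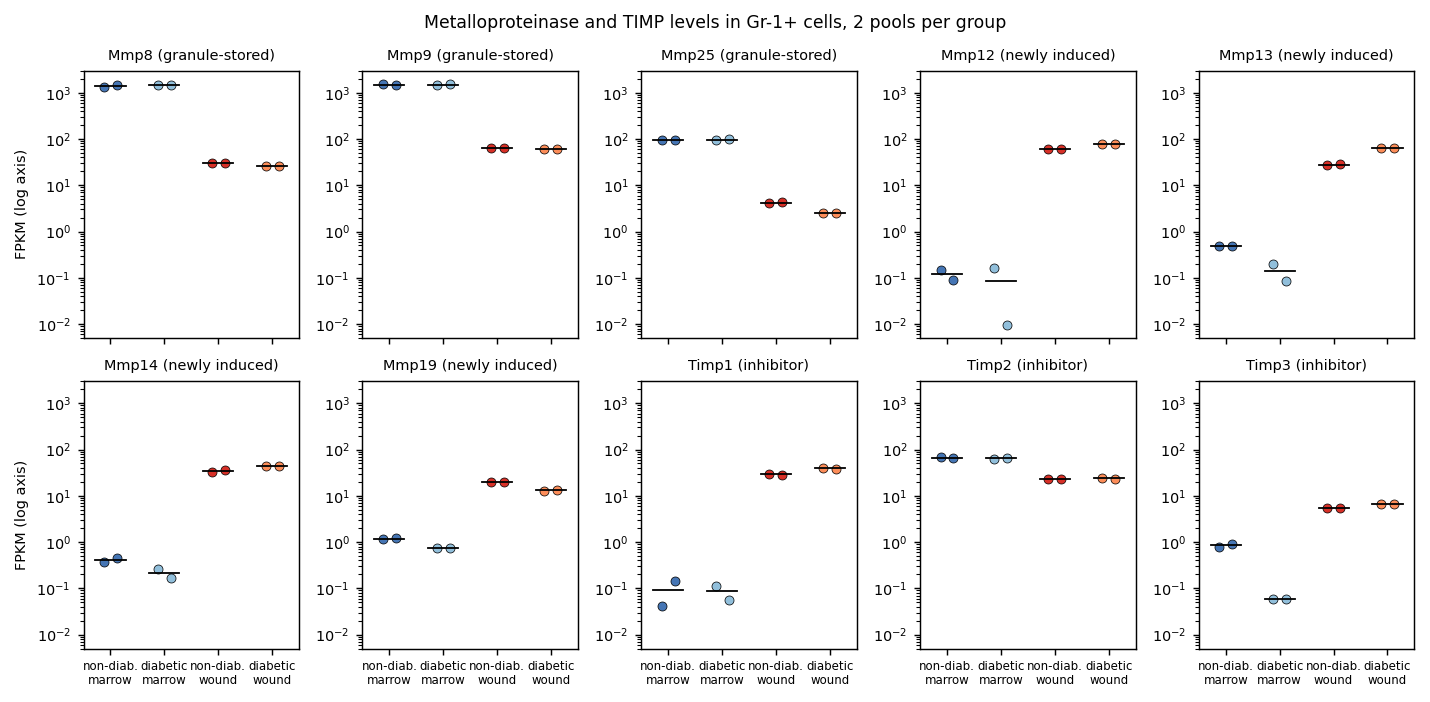
FPKM on a log axis for the 10 genes, 1 panel each, in nondiabetic and diabetic marrow and wound. Points are pools of 5 mice, 2 per group, and bars are group means. The 3 granule enzymes and Timp2 are higher in marrow, and the other 6 genes are higher in wound, where the Mmp13 pools are at 27.4 and 28.7 in nondiabetic and 64.9 and 63.5 in diabetic mice.

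Summed per library, the granule enzymes went from 2958 to 3076 FPKM in marrow to 97.1 and 99.9 in nondiabetic wound and 87.3 and 87.8 in diabetic wound. The induced enzymes went from 0.994 to 2.22 FPKM in marrow to 140 and 145 in nondiabetic wound and 199 and 198 in diabetic wound. Thus the induced enzymes made up under 0.1% of the enzyme sum in each marrow library, from 0.0323% to 0.0729%. They made up 59.1% and 59.2% in nondiabetic wound and 69.5% and 69.3% in diabetic wound. The TIMP sum stayed within 57.7 to 71.1 FPKM in all 8 libraries, but its make-up differed. Timp2 gave 98.5% to 99.8% of it in marrow, and Timp1 gave 49.7% to 56.5% of it in wound. The ratio of enzyme to inhibitor transcripts was 43.2 to 47.4 in marrow and 4.03 to 4.25 in wound, with no overlap between tissues and with the wound groups of the genotypes overlapping. These are ratios of transcripts per length, not of protein or activity, and the Mmp9 term rests on its short locus.

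**Figure D2:**
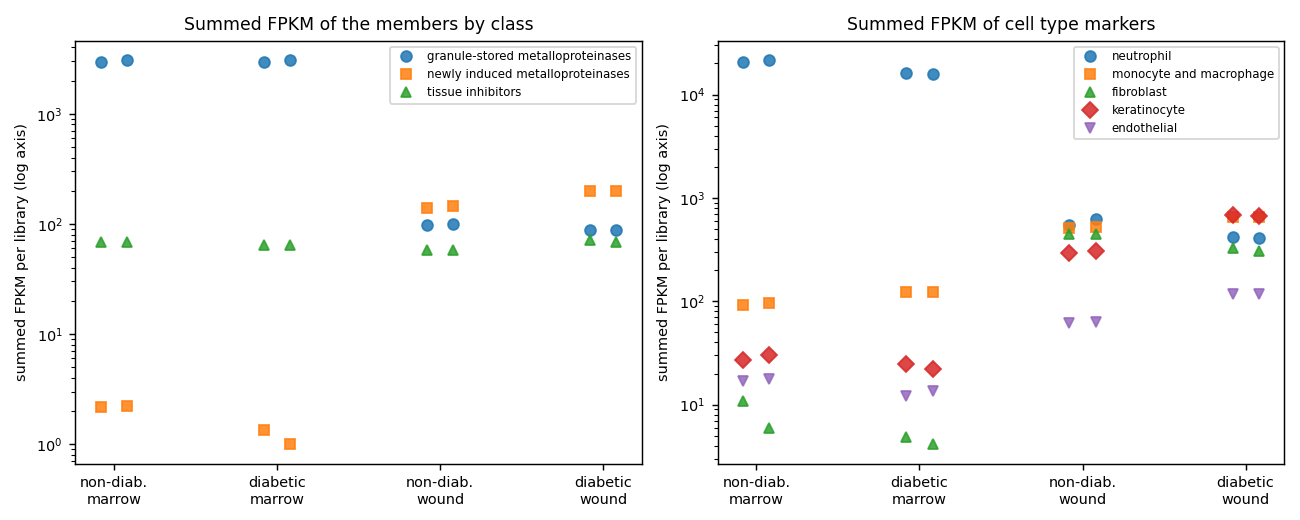
Left, summed FPKM of the granule enzymes, the induced enzymes and the inhibitors in each library on a log axis; right, summed FPKM of 5 cell type marker lists in the same libraries. Each point is 1 pool; the inhibitor sum stays between 57.7 and 71.1 while the granule enzyme sum is 2958 or more in marrow and 99.9 or less in wound, and in diabetic wound the monocyte points lie behind the keratinocyte points.

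Within wound cells, diabetic mice had more transcript of 3 induced enzymes and of Timp1 and Timp3, and less of Mmp19, Mmp8 and Mmp25. Of the 10 genes, 5 were higher and 3 lower, beside 53.8% of all genes called (32.1% higher and 21.7% lower), and 9 had no overlap between genotypes, beside 78.9% of all genes. Mmp13 stood out by size, at 28.02 ± 0.94 FPKM in nondiabetic and 64.2 ± 0.986 in diabetic wound, 2.29-fold higher on mean FPKM. Its difference was 1.17 (SE 0.0591, adjusted p = 4.55e-05 by limma), and it kept its call under every alternative. Timp1 rose by 0.42 (adjusted p = 0.00192), Mmp12 by 0.36 (adjusted p = 0.00717), Mmp14 by 0.33 (adjusted p = 0.00546) and Timp3 by 0.24 (adjusted p = 0.0124). These 4 differences were 1.21-fold to 1.35-fold on mean FPKM. With the wound groups fitted alone at a pseudocount of 1, the 4 kept their calls. With a pseudocount of 0.1 and all groups fitted, the 4 differences were of like size but did not pass the test. Adjusted p by limma was then 0.218 for Timp1, 0.461 for Mmp12, 0.127 for Mmp14 and 0.0663 for Timp3. In that fit each gene has 1 spread shared by all groups. The wound groups were not fitted alone at a pseudocount of 0.1, and the cause of the lost calls was not tested. The call for Timp3 was also lost without nondiabetic wound pool 1 (adjusted p = 0.0618), diabetic wound pool 1 (0.0546) or diabetic wound pool 2 (0.0588).

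In the other direction, Mmp25 fell by 0.57 with diabetes in wound cells (adjusted p = 9.96e-05 by limma) and Mmp19 fell by 0.56 (adjusted p = 1.57e-04). The mean FPKM of Mmp25 was 1.68-fold lower and that of Mmp19 1.52-fold lower, and both kept their call under every alternative. Mmp8 fell by 0.24 (adjusted p = 0.0111), but it did not pass without nondiabetic wound pool 2 (adjusted p = 0.0552), diabetic wound pool 1 (0.0645) or diabetic wound pool 2 (0.0515). Mmp9 was at 64.0 ± 1.39 and 59.4 ± 0.187 FPKM, a difference of -0.10 that did not pass (adjusted p = 0.0897). It passed with median-ratio scaling (-0.21, adjusted p = 0.00474) and with the wound groups alone (adjusted p = 0.0488). For Timp2 the pools of the genotypes overlapped, and its difference of 0.03 missed the threshold (adjusted p = 0.515), with a negative sign under either other scaling. Mmp13 made up 19.5% and 19.8% of the induced enzyme sum in nondiabetic wound and 32.6% and 32.1% in diabetic wound. Between the same libraries the keratinocyte marker sum was 290 and 306 in nondiabetic against 689 and 670 FPKM in diabetic wound, with 9 of 10 markers called higher. The endothelial sum was 61.4 and 62.8 against 117 in both diabetic pools, with 6 of 10 called higher. The fibroblast sum was lower in diabetic wound, at 308 and 328 against 447 and 451 FPKM, with 1 of 11 called higher and 6 lower. Its largest term, Col1a2, was at 230 ± 2.00 FPKM in nondiabetic and 127 ± 10.9 in diabetic wound and was not called. The monocyte and macrophage sum was 511 and 520 against 652 and 661 FPKM, with 7 of 10 called higher and 2 lower, and the neutrophil sum was 543 and 628 against 409 and 418, with 4 of 7 called lower. Dendritic cell markers summed to 178 and 184 against 77.4 and 81.4 FPKM, with 7 of 8 called lower. Mast cell and basophil markers summed to 88.2 and 92.4 FPKM in nondiabetic wound and to 117 in both diabetic pools, with 2 of 8 called higher and 3 lower.

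In marrow, diabetes left the granule enzymes without a call and 4 low genes were lower. Beside 46.5% of all genes called (13.7% higher and 32.8% lower), 4 of the 10 genes were called, all lower, and 6 had no overlap, beside 73.2% of all genes. Mmp8 differed by 0.04, Mmp9 by -0.02 and Mmp25 by 0.05, none past the threshold. With median-ratio scaling these differences were 0.19, 0.13 and 0.20 and passed, at adjusted p of 0.0128, 0.0387 and 0.00289, and Mmp25 also passed with quantile scaling (0.15, adjusted p = 0.00674), so the statement for marrow depends on the scaling. Timp3 fell by 0.80 (SE 0.0551, adjusted p = 1.97e-04 by limma), from 0.843 ± 0.0862 to about 0.06 FPKM in both diabetic pools. Mmp13 fell by 0.38 (adjusted p = 0.00353), Mmp19 fell by 0.33 (adjusted p = 0.00157) and Mmp14 fell by 0.22 (adjusted p = 0.0282). Apart from Mmp19 in nondiabetic mice, these genes were under 1 FPKM in all marrow libraries. By the fragment estimate this is about 13.5 to 49.7 fragments for Mmp13, 24.8 to 45.2 for Mmp14 and 16.9 to 278 for Timp3. The Mmp14 call was lost without nondiabetic marrow pool 2 (adjusted p = 0.109), without diabetic marrow pool 2 (0.114), without diabetic wound pool 1 (0.0581) or pool 2 (0.0579), with a pseudocount of 5 (0.253) and with median-ratio scaling (0.0517). Mmp12, Timp1 and Timp2 differed by -0.05, -0.01 and -0.07 and did not pass. Between the same marrow groups, 7 of 10 endothelial markers were called lower with diabetes, with sums of 16.9 to 17.8 against 12.1 to 13.6 FPKM. Of 7 neutrophil markers 5 were called lower, with sums of 20796 to 21619 against 15957 to 16302. Of 10 monocyte and macrophage markers 8 were called higher and 1 lower, with sums of 92.4 to 96.0 against 123 to 124. Of 11 fibroblast markers 2 were called higher and 2 lower. The part of these cells in the differences was not tested.

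The model also tests whether diabetes acted differently in wound than in marrow, as the wound difference minus the marrow difference. Of the 10 genes, 5 passed with a positive value and 3 with a negative value, beside 58.5% of all genes called (39.1% higher and 19.4% lower). Mmp13 had the largest at the pseudocount of 1, 1.55 (SE 0.0836, adjusted p = 8.31e-05 by limma), being lower in marrow and higher in wound of diabetic mice. Timp3 (1.04) and Mmp14 (0.54) had the same crossed pattern. With a pseudocount of 0.1 Timp3 had a larger value than Mmp13, 2.84 against 2.51. Timp1 (0.43) and Mmp12 (0.41) were higher in wound without a call in marrow, and Mmp25 (-0.62) and Mmp8 (-0.27) were lower in wound without a call in marrow. Mmp19 was lower in both tissues, and its value of -0.24 depends on the pseudocount. On mean FPKM it was 1.52-fold lower in diabetic wound and 1.60-fold lower in diabetic marrow. With a pseudocount of 0.1 the difference between the tissues was 0.018 (adjusted p = 0.871). Mmp9 (-0.08, adjusted p = 0.291) and Timp2 (0.10, adjusted p = 0.156) did not pass. Both passed with median-ratio scaling, Mmp9 at -0.34 (adjusted p = 0.00299) and Timp2 with its sign turned, at -0.16 (adjusted p = 0.0378).

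**Figure D3:**
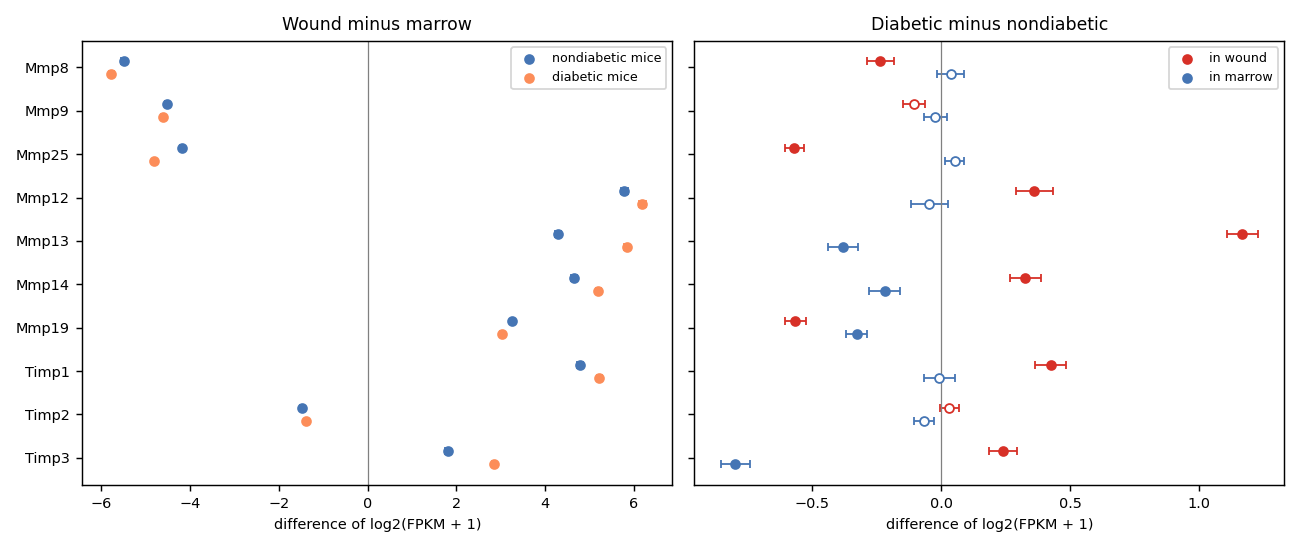
Differences of log2(FPKM + 1) with the standard error of the limma fit, for wound minus marrow (left) and diabetic minus nondiabetic (right). Filled points passed the adjusted threshold of 0.05 and open points did not; Mmp13 is the farthest to the right in wound, at 1.17, and to the left of 0 in marrow, at -0.38.

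The list of the other metalloproteinases with Timp4 held 17 genes, of which 9 were tested. In wound 5 of them rose and 3 fell in nondiabetic mice, and 5 rose and 2 fell in diabetic mice. Mmp3, stromelysin 1, which cuts proteoglycans and activates procollagenases, went from 0.0571 and 0.0138 FPKM in nondiabetic marrow and 0.0285 and 0 in diabetic marrow to 9.83 and 10.1 in nondiabetic and 21.9 and 21.0 in diabetic wound. It rose with diabetes in wound by 1.03 (SE 0.0518, adjusted p = 4.44e-05 by limma), a size like that of Mmp13, and the difference between the tissues was 1.06 (adjusted p = 1.69e-04). Mmp2, gelatinase A, which Mmp14 and Timp2 help to activate, rose to 7.66 ± 0.397 FPKM in nondiabetic and 8.00 ± 0.12 in diabetic wound. Its diabetes difference there was 0.06 and did not pass (adjusted p = 0.425). Mmp10, stromelysin 2, was listed at 0 in all 4 marrow libraries and was at 0.921 ± 0.138 and 1.202 ± 0.0894 FPKM in the wound groups. Over the list, diabetes gave 3 higher and 1 lower in wound, and 1 higher and 2 lower in marrow. Beside this and the lists below, diabetes gave 32.1% of all genes higher and 21.7% lower in wound, and 13.7% and 32.8% in marrow. For wound against marrow the shares of all genes were 32.8% higher and 53.8% lower in nondiabetic mice. In diabetic mice they were 37.7% and 47.8%.

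Among 15 tested of 18 Adam and Adamts genes, relatives of the metalloproteinases that shed surface proteins or cut proteoglycans, 10 rose and 4 fell in wound in each genotype. Adamts1 and Adamts4, which cleave aggrecan and versican, were under 0.1 FPKM in both marrow groups on average. Adamts1 reached 21.4 ± 0.107 FPKM in nondiabetic and 24.8 ± 0.0985 in diabetic wound, and Adamts4 21.5 ± 0.844 and 15.3 ± 0.546. With diabetes in wound, Adamts1 rose by 0.20 (adjusted p = 0.00915 by limma) and Adamts4 fell by 0.46 (adjusted p = 8.48e-04). Adam17, the TNF-shedding enzyme that Timp3 inhibits, rose in wound by 1.44 and 1.25, from 7.35 ± 0.0642 to 21.7 ± 0.406 FPKM in nondiabetic mice. Adam19 fell in wound, from 39.1 ± 0.0317 to 6.58 ± 0.672 FPKM in the nondiabetic and from 70.6 ± 1.65 to 6.33 ± 0.101 in the diabetic pools.

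Activators and other regulators of the enzymes went both ways: of 19 tested of 23, 9 rose and 9 fell in nondiabetic wound, and 10 rose and 7 fell in diabetic wound. Plau, the urokinase that makes plasmin and so activates metalloproteinases, rose from 23.0 ± 0.354 to 140 ± 1.92 FPKM in the nondiabetic and from 17.5 ± 1.16 to 212 ± 3.96 in the diabetic pools. With diabetes it rose in wound by 0.59 (adjusted p = 2.31e-04 by limma). Lcn2, the lipocalin that binds Mmp9 protein in human neutrophils, fell from 2825 ± 108 to 124 ± 4.28 FPKM in the nondiabetic and from 1920 ± 44.2 to 63.2 ± 0.131 in the diabetic pools. Unlike Mmp9, it passed the test for diabetes in wound (-0.96, adjusted p = 5.12e-05). Reck, a membrane-anchored inhibitor of several metalloproteinases, fell in wound, from 37.6 ± 0.24 to 1.55 ± 0.197 FPKM in nondiabetic mice, opposite in direction to Timp1 and Timp3. Bsg, basigin, an inducer of metalloproteinases, rose in wound by 0.51 and 1.12. Over the list, diabetes gave 8 higher and 3 lower in wound, and 3 higher and 10 lower in marrow.

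The other genes of the secondary and tertiary granules went the way of Mmp8 and Mmp9: of 12 tested of 17, 11 fell and 1 rose in wound in each genotype. Their median differences were -4.99 and -4.25. Of all genes, 53.8% were called lower in wound in nondiabetic mice and 47.8% in diabetic mice. Cd177, a neutrophil surface protein also stored in granules, had differences of -8.00 and -6.93, and Itgb2l, an integrin-related gene, of -7.29 and -6.60. In marrow the granule list and the granule enzymes gave unlike counts with diabetes. There 9 of the 12 granule genes fell and 2 rose, beside 32.8% of all genes lower and 13.7% higher. Mmp8, Mmp9 and Mmp25 had no call. Chi3l3, a chitinase-like secreted protein counted at a locus shared with Chi3l7, differed in diabetic marrow by -1.88, from 3768 ± 157 to 1023 ± 17.2 FPKM. Itgb2l differed there by -1.54 and Olfm4, a specific granule glycoprotein, rose by 0.94.

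In nondiabetic wound the order of mean levels was Mmp9, Mmp12, Mmp14, Mmp8, Timp1, Mmp13, Timp2, Mmp19, Timp3 and Mmp25. The pools of Timp1 and Mmp13 overlapped, and those of the other neighbours in this order did not. In diabetic wound the order was Mmp12, Mmp13, Mmp9, Mmp14, Timp1, Mmp8, Timp2, Mmp19, Timp3 and Mmp25, and no neighbours overlapped. Mmp13 was thus sixth in 1 genotype and second in the other. The place of Mmp9 rests on its short locus.

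The likeness of patterns was measured as the root mean square distance between log2(FPKM + 1) values, each gene centred on its own mean over the 8 libraries. Mmp14 and Timp1 were the nearest pair among the 10 genes, at 0.10, and each was among the 3 nearest genes of the other in the whole table. Gja1, a gap junction protein, was as near to Mmp14 (0.10). Mmp12 was nearest to Maff (0.07), a small transcription factor, and Icam1, an adhesion molecule, was among its 3 nearest genes. Mmp13 was nearest to Lgals7 (0.15), a galectin of stratified epithelia, followed by Csf3, the granulocyte growth factor (0.19), and Tpsb2, a mast cell tryptase (0.23). Mmp25 had Retnlg, a resistin-like gene of neutrophils, among its nearest (0.12), and Mmp8 had Rab3d (0.15), a small GTPase of secretory granules. Within the enzymes, Mmp9 and Mmp25 were 0.17 apart, and Mmp8 was 0.54 from Mmp9. With 8 libraries in 4 groups, these distances mostly restate the difference between tissues.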

How the data were processed

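RNA was sequenced from Gr-1+ cells of 4 groups with 2 pools each. The authors' deposited table holds FPKM for 39330 loci, 28408 of them named, made with TopHat and Cufflinks on mm9 per the submitters' processing notes; versions and settings are not given in the sources used here. Names with an estimate not marked OK in any library (520) were left out. The locus of at least 200 bp with the highest mean FPKM stood for a name, and the 13041 names that reached 1 FPKM in 2 or more libraries were tested. The model used log2(FPKM + 1) without rescaling. The 8 libraries were fitted together in limma 3.58.1 (R 4.3.3) with 4 group means, 4 residual degrees of freedom and a trend; 5 contrasts were tested, two-sided, with Benjamini-Hochberg adjustment. The pipeline was tested on simulated data. Relative depth was read from the FPKM steps of unnamed loci of 415 to 416 bp. At these, 1 fragment was worth 0.0668 to 0.124 FPKM, and 92% to 100% of values were whole within 0.05. Fragments behind gene values were instead estimated from the steps of longer unnamed loci, with 7 to 40 loci a library. There 1 fragment was worth 16.5 to 30.5 FPKM times bp, and the share of whole values was not computed. The estimate covers counting only.

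The labels give each tissue's pools as made from groups of 5 mice, but do not say that a pool number means the same mice in both tissues. The correlation of pool differences between marrow and wound was -0.21 in nondiabetic and -0.12 in diabetic mice. Besides the 10 genes, named genes were up to 5 a list by tissue and up to 3 by diabetes with the smallest p and FPKM of at least 5, plus genes taken whatever their values, such as Mmp2, Mmp3 and Plau, and for likeness the 3 nearest genes. Not every gene the rule takes is reported here. The genes and lists were chosen with earlier results of these data known. Figures were drawn with matplotlib 3.10.9.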

Additional observations from a re-analysis of the deposited data

Results flagged for a closer look

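For 8 of the 10 genes the effect of diabetes differed between wound and marrow by the limma test of that difference, which 58.5% of all genes tested also passed. On the log2(FPKM + 1) scale, the wound difference minus the marrow difference was 1.55 for Mmp13 (adjusted p = 8.31e-05), 1.04 for Timp3 (adjusted p = 2.14e-04) and 0.54 for Mmp14 (adjusted p = 0.00271). It was 0.43 for Timp1 (adjusted p = 0.00644) and 0.41 for Mmp12 (adjusted p = 0.0155). It was -0.62 for Mmp25 (adjusted p = 2.84e-04), -0.27 for Mmp8 (adjusted p = 0.0213) and -0.24 for Mmp19 (adjusted p = 0.0146). The adjusted p for Mmp8 lay between 0.0602 and 0.0728 without either diabetic wound pool, nondiabetic wound pool 2 or diabetic marrow pool 2. That for Mmp12 was 0.0536 without nondiabetic wound pool 1 and 0.0521 without diabetic wound pool 2, and that for Mmp19 was 0.0574 and 0.0602 without nondiabetic or diabetic wound pool 1. With a pseudocount of 0.1, the adjusted p was 0.302 for Mmp12, 0.350 for Timp1 and 0.871 for Mmp19.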

How the results depend on the processing

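Of 1095 values of the 10 genes over 23 alternatives, 1041 kept direction and call, 30 lost a call, 6 gained 1 and 18 turned sign. With a pseudocount of 0.1, 4 of the 10 genes were called for diabetes in wound (8 in the main setting) and 5 in the difference between tissues (8), where Mmp19 turned to 0.018. Over all genes, 53.8% and 58.5% were called in these contrasts in the main setting. Those calls also fell with a pseudocount of 0.1, but by a much smaller share than the calls of the 10 genes. With the marrow groups alone, 1 gene of the 5 still tested was called in marrow (4 of 10 in the main setting), since Mmp12, Mmp13, Mmp14, Timp1 and Timp3 then fell below the filter. Quantile scaling turned Timp2 in wound (-0.017), Mmp8 (-0.074), Timp1 (0.028) and Timp2 (0.040) in marrow, and the tissue difference of Timp2 (-0.057); it ended the tissue difference calls of Mmp8 and Mmp12 and added a call for Mmp25 in marrow (0.15). Median-ratio scaling turned Timp2 in wound (-0.073), Mmp9 (0.13), Timp1 (0.0050) and Timp2 (0.082) in marrow, and the tissue difference of Timp2 (-0.16). It moved the median of all genes from -0.38 to 0.07 and from -0.18 to 0.06 for wound minus marrow, and from 0.19 to -0.0037 for the tissue difference; the share of calls that were higher went from 37.8% to 52.4%, 44.1% to 52.4%, 59.7% to 46.7%, 29.4% to 52.5% and 66.8% to 46.6% over the 5 contrasts, in the order wound minus marrow in nondiabetic and diabetic mice, diabetes in wound, in marrow, and their difference. Quantile scaling moved the first 2 medians to -0.13 and -0.045 and gave shares of 45.2%, 47.9%, 53.0%, 46.5% and 53.9%. The causes were not tested.

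Leaving out 1 library, with the lone pool assumed to vary like the other groups, 10 of 10 genes were called for tissue in each genotype, 6 to 8 for diabetes in wound, 3 to 4 in marrow and 6 to 8 for the difference. Over all genes the calls were 10662 to 11191 and 10361 to 11146 for tissue, 5194 to 7026 in wound, 4224 to 5782 in marrow and 6424 to 7024 for the difference. The sign turned in marrow, for values with no call, for Mmp8 (-0.032 to 0.11), Mmp9 (-0.058 to 0.015), Timp1 (-0.073 to 0.058) and Mmp12 (-0.15 to 0.055), and in wound for Timp2 (-0.011 to 0.074). With pool number as a replicate block the counts of genes called were 11261, 11100, 6828, 5855 and 7426, and no call of the 10 genes changed. With the pool of mice as the block, 11208, 11045 and 7000 genes were called in the contrasts that include both tissues, and Mmp19 lost its call for the difference (adjusted p = 0.0516). Crossed numbers, an alternative chosen after seeing the data like the block for the pool of mice, gave 11172, 11021 and 6843. With crossed numbers Mmp8 lost its call for the difference (adjusted p = 0.0570 by limma). Depth limits Timp1 in marrow most, at about 1.23 to 4.86 fragments, and Mmp12 in diabetic marrow pool 2, at about 2.91.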
